A study of Homo sapiens with 3 samples.

Results

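Genes that carry or sense BMP and TGF-beta signals, or are known as targets of them, were followed in HT29 cells grown on 3 substrates. The 9 genes BMP2, BMP4, ID1, ID2, ID3, SMAD6, SMAD7, TGFB1 and TGFBR2 were taken by name from the 21614 genes that the array probes could be matched to. HT29 is an established line of epithelial cells from a human colon adenocarcinoma, kept in RPMI medium with serum. Cells were harvested from ordinary tissue culture polystyrene (TCP), from membranes of chitosan (CS), a cationic polysaccharide made from chitin, or from chitosan membranes grafted with hyaluronan (CSHA), a polysaccharide of the extracellular matrix. Apart from the substrate, all groups were the same cell line with no further treatment named in the labels, and the culture time before harvest for the arrays was not given in the sources used here. RNA from each substrate was hybridized in 1 colour to 1 array, so differences have no replicate check, no p-value is given, and array and substrate cannot be told apart.

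Bone morphogenetic proteins (BMPs) and TGF-beta are secreted ligands that bring together type I and type II receptor kinases on the cell surface. The BMP receptors phosphorylate SMAD1, SMAD5 and SMAD9, the TGF-beta receptors phosphorylate SMAD2 and SMAD3, and both sets join SMAD4 and enter the nucleus. ID1, ID2 and ID3 are classical targets of BMP signals, while SMAD6 and SMAD7 are inhibitory SMADs that the pathway induces and that act back on the receptors. In the colon, BMP signals are strongest in the differentiated cells near the lumen, and stroma around the crypt base secretes BMP antagonists. HT29 is known to carry an inactivating mutation of SMAD4. The levels of target genes given here are therefore not read as a measure of BMP or TGF-beta signals, whose activity was not tested.

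The labelled cell type was checked against marker genes. All 10 epithelial and colon markers, among them EPCAM, KRT20, CDX2 and LGALS4, were well above background on every array. Of 9 stromal markers, 2 were well above background on TCP (SPARC and VIM), 0 on CS and 1 on CSHA (PDGFRB), and COL1A1, COL1A2, COL3A1, DCN, LUM and THY1 were not well above background on any array. Of the 5 immune markers on the array, well above background were 4 (TCP), 3 (CS) and 4 (CSHA), and their summed signal relative to the 75th percentile of the array was 3.19 for TCP, 4.14 for CS and 5.81 for CSHA. CD14, at 834 on TCP, 1408 on CS and 1633 on CSHA, made up most of that sum. Of 4 endothelial markers 3 were well above background on each array, with KDR as the exception, and their summed signal was between 0.332 and 0.401 times the 75th percentile. The part of these genes in the differences given here was not tested. In bulk RNA, fewer cells of a type and less RNA per cell cannot be told apart.

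The promoter windows of the genes were searched for letters that SMAD proteins are known to bind. The letters GTCT, or AGAC on the other strand, form the short core that SMAD proteins bind, GTCTAGAC is its palindrome and holds both cores, and GGCGCC, which overlaps neither, is a GC-rich element known from BMP target genes. RefSeq windows for GRCh38.p14 matched 8 of the 9 genes, with 13 windows in all, and were searched over the 250 bases before the start site on both strands. The windows of the classical BMP targets ID1, ID2 and ID3, of SMAD6, which held the palindrome, and of TGFB1, which held none of these letters, are shown 5′ to 3′ with GTCT or AGAC in capitals. They lie at chr20:31605039-31605288 on the plus strand (ID1), chr2:8681806-8682055 on the plus strand (ID2), chr1:23559502-23559751 on the minus strand (ID3), chr15:66701986-66702235 on the plus strand (SMAD6) and chr19:41353923-41354172 on the minus strand (TGFB1).
ID1: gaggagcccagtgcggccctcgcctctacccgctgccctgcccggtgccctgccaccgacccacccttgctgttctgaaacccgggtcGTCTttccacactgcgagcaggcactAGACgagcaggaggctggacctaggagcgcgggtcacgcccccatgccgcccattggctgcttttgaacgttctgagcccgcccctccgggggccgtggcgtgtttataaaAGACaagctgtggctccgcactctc
ID2: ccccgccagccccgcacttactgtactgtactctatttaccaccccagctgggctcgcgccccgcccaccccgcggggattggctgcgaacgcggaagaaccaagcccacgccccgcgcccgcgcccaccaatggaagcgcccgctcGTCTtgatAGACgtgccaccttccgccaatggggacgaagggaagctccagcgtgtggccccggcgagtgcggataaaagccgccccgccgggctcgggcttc
ID3: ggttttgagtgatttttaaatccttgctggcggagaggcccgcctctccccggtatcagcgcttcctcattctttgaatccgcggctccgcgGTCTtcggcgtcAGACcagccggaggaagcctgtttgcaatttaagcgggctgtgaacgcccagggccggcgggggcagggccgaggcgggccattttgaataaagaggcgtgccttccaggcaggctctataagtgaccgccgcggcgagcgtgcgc
SMAD6: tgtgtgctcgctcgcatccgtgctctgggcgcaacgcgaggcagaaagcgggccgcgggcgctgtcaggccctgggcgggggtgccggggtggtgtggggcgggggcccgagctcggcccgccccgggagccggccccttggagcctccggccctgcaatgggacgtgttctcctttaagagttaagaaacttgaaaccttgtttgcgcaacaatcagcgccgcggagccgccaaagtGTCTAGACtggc
TGFB1: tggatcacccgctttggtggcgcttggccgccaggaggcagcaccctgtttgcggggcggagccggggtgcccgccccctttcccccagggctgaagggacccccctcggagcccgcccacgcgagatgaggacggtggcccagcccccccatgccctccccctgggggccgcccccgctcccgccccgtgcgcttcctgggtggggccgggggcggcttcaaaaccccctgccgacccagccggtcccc
The ID1 window held GTCT or AGAC at 3 places, and the ID2 and ID3 windows at 2 places each. In SMAD6 the palindrome began at position -12 from the start site. GTCTAGAC stood in 64 of all 35116 windows of this length, or 0.182%, and among the members in SMAD6. GTCT or AGAC stood in 77.5% of all windows, so its presence before BMP4, ID1, ID2, ID3, SMAD6, SMAD7 and TGFBR2 is common to most genes. GGCGCC stood in 16.4% of all windows, and among the members before BMP4. These matches describe the letters in the windows and no binding was measured.

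All 9 genes were well above background on all 3 arrays. Levels are given as the processed signal of the scanner, a background-corrected intensity, and differences as the log2 signal shifted by each array's 75th percentile, with values of 354 (TCP), 423 (CS) and 337 (CSHA). The spread beside a difference is the SD of replicate spots on the same array. For probes printed once it was not measured but taken from probes of similar brightness among the 902 printed 10 times. These were split by brightness into 5 groups, and the median SD of the group was used, so the spread changes in steps. On TCP it was 0.31 for log2 levels from -5.61 to -1.12 and 0.066 from -1.12 to 1.37. BMP2 on TCP, at -0.84, lay near that edge. This spread covers the printing and reading of spots and leaves out the spread between cultures.

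The ligands differed in direction. BMP2, a ligand that activates the BMP receptors and is made by differentiated colon epithelium, was higher on both membranes, whereas TGFB1, the founding TGF-beta ligand, and BMP4, a second BMP ligand, were lower on CSHA. The BMP2 probe (NM_001200) read 198 on TCP, 380 on CS and 390 on CSHA. After the shift, the CS array exceeded TCP by 0.68 on the log2 scale (spot SD 0.088), a 1.60-fold difference, and the CSHA array by 1.04 (spot SD 0.092), a 2.06-fold difference. The order was TCP, CS, CSHA, and the step of 0.36 from CS to CSHA (spot SD 0.085) was also larger than the spot spread. That step rests largely on the shift, since the signals before it were 380 and 390. Of the 13486 genes that were well above background on every array, 1.82% had a higher difference on CS and 1.74% on CSHA. For the step from CS to CSHA the share was 15.0%. The difference on CSHA was between 0.85 and 1.47 over all settings, and with background correction by normexp, the shift over detected probes, or the deposited values it was under 2-fold. The normexp setting adds an offset of 50 to every signal, and the deposited values come from the median signal without background correction. Both shrink the differences of dim probes by construction.

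**Figure D1:**
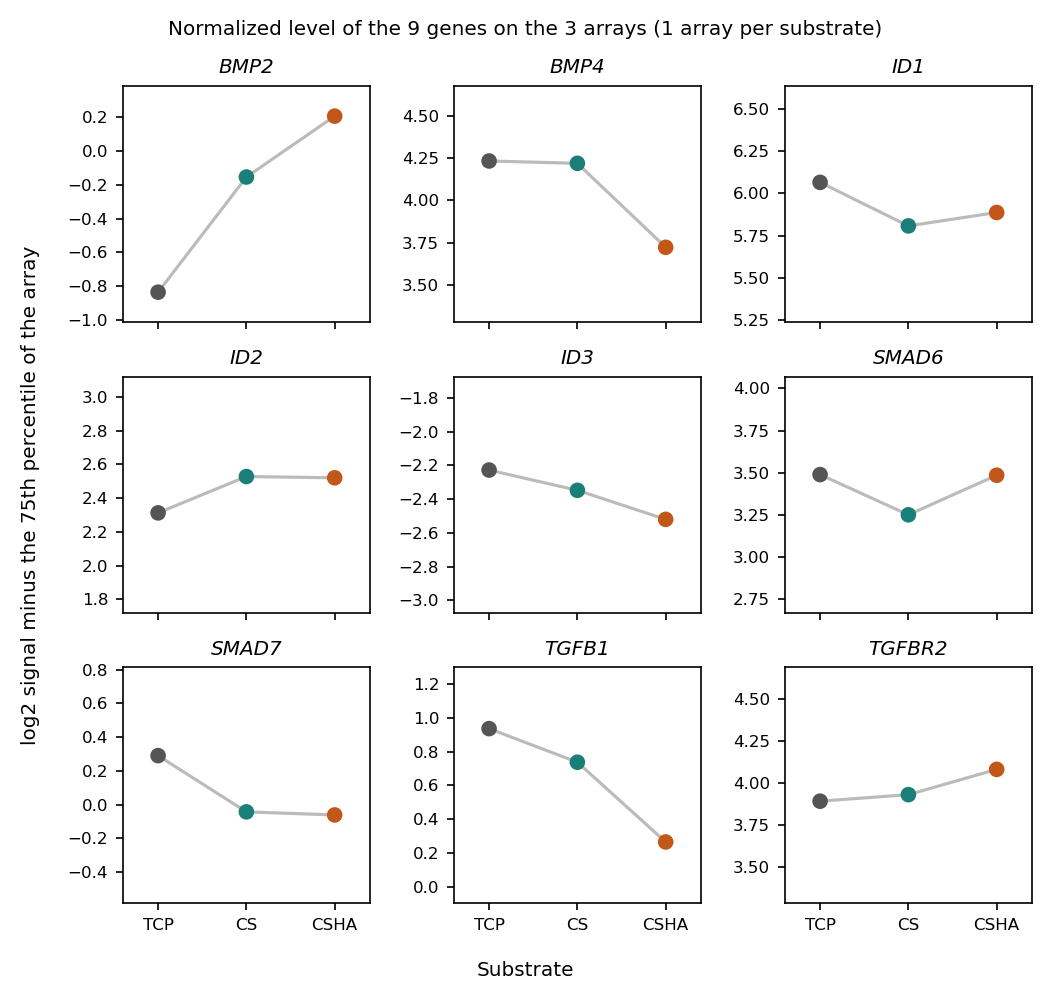
Normalized level (y axis, log2 signal minus the 75th percentile of the array) of each of the 9 genes on TCP, CS and CSHA (x axis), 1 point per array and the same height of axis in every panel. BMP2 lies at -0.84 on TCP and 0.21 on CSHA, TGFB1 is lowest on CSHA at 0.26 against 0.94 on TCP, and BMP4 is lowest on CSHA at 3.72.

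BMP4 (NM_001202) read 6660 on TCP, 7873 on CS and 4451 on CSHA. Its shifted level differed between CS and TCP by -0.01 (spot SD 0.055), within the spot spread, and was lower on CSHA by 0.51 against TCP (spot SD 0.059) and by 0.50 against CS (spot SD 0.057). With the 75th percentile shift, CSHA thus stood apart from both other substrates for BMP4. With arrays scaled to spike-in probes in place of the 75th percentile, the difference on CSHA was -0.08 against TCP and -0.12 against CS.

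TGFB1 (NM_000660) was printed 10 times on each array, so its spread was measured directly. The spots read from 641 to 730 on TCP with a median of 672, from 668 to 742 on CS with a median of 706, and, over the 9 spots not flagged as outliers, from 375 to 436 on CSHA with a median of 406. No spot used on CSHA reached the range of either other array, before or after the shift. The mean log2 level was 0.94 ± 0.06 on TCP (SD, n = 10 spots), 0.74 ± 0.04 on CS (n = 10) and 0.26 ± 0.08 on CSHA (n = 9). Against TCP, TGFB1 was thus lower on CS by 0.20 and on CSHA by 0.67, a 1.59-fold difference, and between the membranes it was lower on CSHA by 0.47. These spots share 1 RNA sample per substrate, so their tightness says nothing of the spread between cultures. Among the 13486 genes measured on every array, 8.27% had a lower difference on CSHA than TGFB1. With spike-in scaling the difference of TGFB1 on CSHA was -0.24 against TCP and -0.10 against CS.

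**Figure D2:**
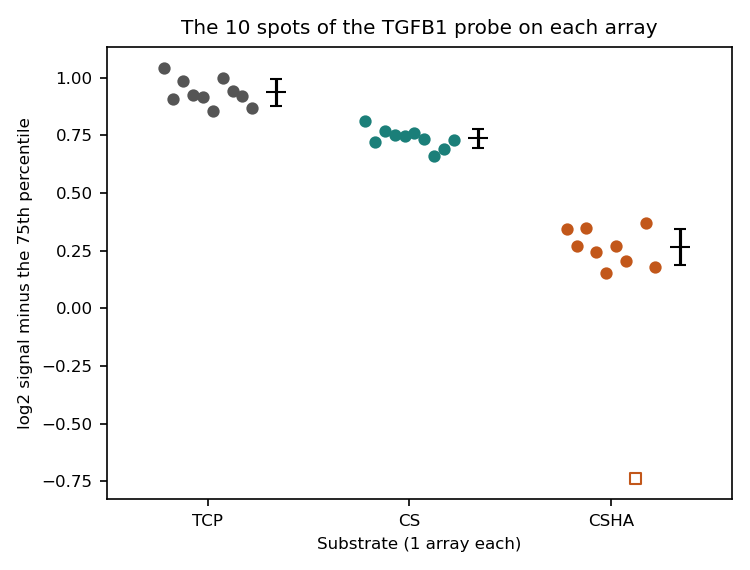
Log2 signal minus the 75th percentile (y axis) of every spot of the TGFB1 probe on the 3 arrays (x axis), with the mean and SD of the spots used in black and the spot flagged as an outlier as an open square. The spots used span 0.86 to 1.04 on TCP, 0.66 to 0.81 on CS and 0.15 to 0.37 on CSHA.

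Among the receptors, TGFBR2, the type II receptor that binds TGF-beta, varied little. Its probe (NM_001024847) read 5256 on TCP, 6445 on CS and 5707 on CSHA. Its difference from TCP was 0.04 on CS (spot SD 0.055), within the spot spread and between -0.01 and 0.10 over the settings, so that it has no settled direction there. On CSHA it was higher than TCP by 0.19 (spot SD 0.059), close to the median of 0.13 over all genes.

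The ID genes, which encode proteins that bind and disable basic helix-loop-helix transcription factors, did not move together. ID1 (NM_002165) read 23712 on TCP, 23668 on CS and 19962 on CSHA. Against TCP its shifted level was lower on CS by 0.26 (spot SD 0.055) and on CSHA by 0.18 (spot SD 0.059), but with spike-in scaling it was higher on CSHA by 0.25. ID2 was read by 2 probes of the same transcript (NM_002166), the brighter at 1758, 2436 and 1934 and the other at 492, 678 and 584 on TCP, CS and CSHA. Against TCP the brighter probe differed by 0.22 (CS) and 0.21 (CSHA), and the other by 0.21 and 0.32, all beyond the spot spread of 0.06 to 0.09. ID2 was therefore higher on both membranes by either probe, in the opposite direction to ID1 on CS. The median of all genes on CSHA was 0.13. Of the genes measured on every array, 22.7% on CS and 40.0% on CSHA had a higher difference than its brighter probe. ID3 (NM_002167) was dim, with signals of 75.6 (TCP), 83.0 (CS) and 58.8 (CSHA), and its differences of -0.12 on CS and -0.29 on CSHA lay within a spot spread of 0.39 and 0.40. That spread was not measured for ID3. On TCP it came from probes with log2 levels from -5.61 to -1.12, and ID3 was at -2.23. No direction is drawn from these differences of ID3, and with spike-in scaling the value on CSHA was 0.14.

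The inhibitory SMADs differed in how CSHA stood to TCP. SMAD6 (NM_005585), which mainly restrains BMP receptors, read 3976 on TCP, 4024 on CS and 3778 on CSHA. It was lower on CS by 0.24 (spot SD 0.055), and on CSHA its difference from TCP was -0.00 (spot SD 0.059), or 0.43 with spike-in scaling. SMAD7 (NM_005904), which restrains both TGF-beta and BMP receptors, read 433 on TCP, 410 on CS and 323 on CSHA. Against TCP it was lower on CS by 0.33 (spot SD 0.088) and on CSHA by 0.35 (spot SD 0.092), the latter becoming 0.08 with spike-in scaling. Between CSHA and CS, SMAD7 differed by -0.02, within the spot spread of 0.085.

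**Figure D3:**
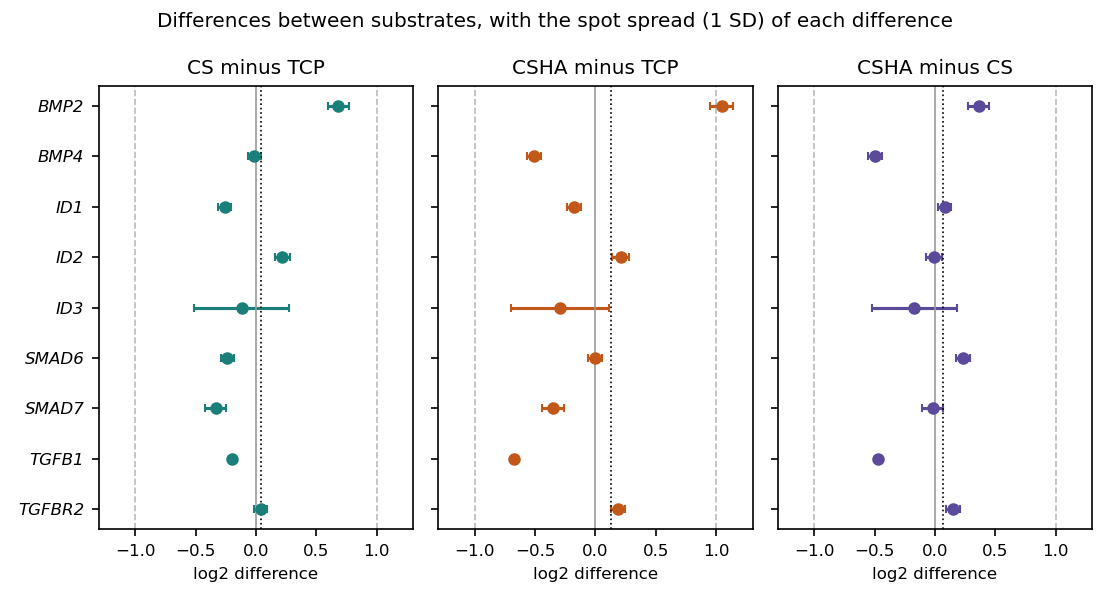
Log2 difference (x axis) of each gene (y axis) for CS minus TCP, CSHA minus TCP and CSHA minus CS, with bars of 1 spot SD, a solid line at 0, dashed lines at 2-fold and a dotted line at the median of all genes. BMP2 on CSHA, at 1.04, is past the 2-fold line, and the bar of ID3 crosses 0 in each comparison.

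Counted as a set, 1 of the 9 genes was at least 2-fold higher in any comparison, which was BMP2 on CSHA, and 0 were at least 2-fold lower. Between CS and TCP, 0 were 2-fold higher, beside 1.37% of all 14464 genes with a value, and 0 were 2-fold lower, beside 1.92%. Between CSHA and TCP the shares of all 14624 genes were 3.02% higher and 3.98% lower, so that at these shares of all genes a count of 1 among 9 is no result about the set. Between CSHA and CS, with 0 members past 2-fold, they were 2.27% higher and 2.15% lower of 14600 genes. These shares include genes with bounds, whereas the members were well above background on all 3 arrays. Among the 13486 genes so measured, 0.623% were higher and 0.593% lower on CS, and 1.95% and 3.3% on CSHA. Between CSHA and CS they were 0.801% and 1.51%. BMP2 included, 6 members lay below 0 and 3 above on CS, with the same counts on CSHA, where 56.8% and 61.7% of all genes lay above 0. The members had a median of -0.12 on CS beside 0.04 over all genes, -0.18 on CSHA beside 0.13, and -0.01 between CSHA and CS beside 0.07. Spike-in scaling moved the median of all genes on CSHA to 0.56 and that of the members to 0.25, and the gap between them was -0.30 before and -0.31 after. That scaling takes 1 constant from each array, so the gap could change only through which genes had a value, and its steadiness is no check. The gap on CSHA was -0.20 with normexp, -0.21 with the deposited values and -0.30 with quantile normalization. Relative to the median of all genes, the differences on CSHA were 0.92 for BMP2, 0.08 for ID2, 0.06 for TGFBR2, -0.13 for SMAD6, -0.30 for ID1, -0.42 for ID3, -0.48 for SMAD7, -0.64 for BMP4 and -0.80 for TGFB1. Both comparisons with TCP share that array, so like values on CS and CSHA do not bear each other out.

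**Figure D4:**
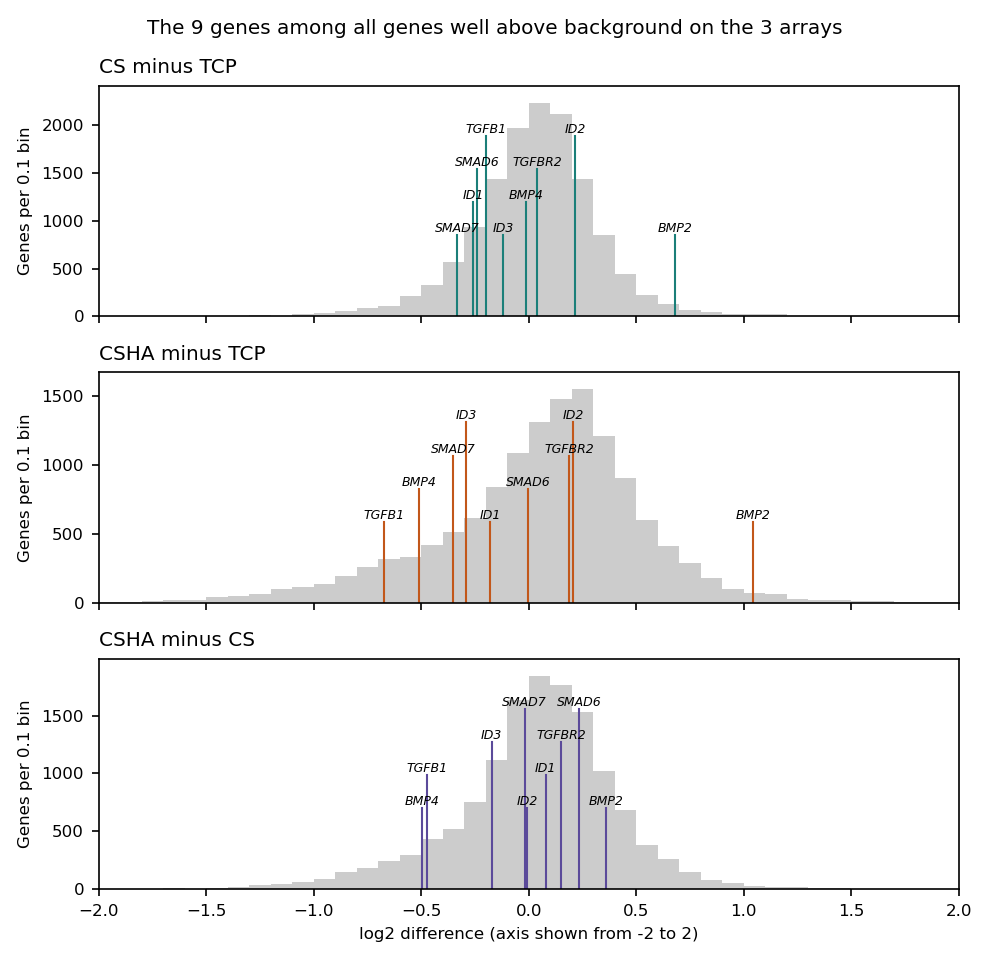
Number of genes (y axis) by log2 difference (x axis, in bins of 0.1, shown from -2 to 2) among the 13486 genes measured on every array, with a line for each of the 9 genes whose height has no meaning. BMP2 lies in the upper tail against TCP, at 0.68 on CS and 1.04 on CSHA, while TGFBR2 and ID2 lie within the bulk of genes.

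How common each pattern was differed between the genes. Over the 3 arrays, 34 of 13485 other genes (0.252%) lay within a distance of 0.1 log2 units of the pattern of BMP2, the closest being SLC23A3 (0.0056) and WIPI1 (0.0086). For TGFB1 there were 276 such genes (2.05%), led by MTOR and MAP3K4, and for SMAD7 242 (1.79%), led by RBM6 and HNRNPAB. For BMP4 there were 315 (2.34%), led by CALM3 and IFT88, for ID1 480 (3.56%), led by UBAP1L and HPN-AS1, and for SMAD6 566 (4.20%), led by SH3BP2 and SRRM2-AS1. For ID3 there were 621 (4.61%), with FOXJ2 among the closest. The most common patterns were those of ID2 and TGFBR2, with 1467 genes (10.9%) near ID2, led by ZNF684 and LZIC, and 1698 (12.6%) near TGFBR2, led by NUF2. With 3 values per gene such likeness is a description of these arrays.

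The rest of the pathway was read from 91 other genes, of which 90 were on the array, 50 were well above background on all 3 arrays, 12 on some and 28 on none. Among these 50, more lay past 2-fold downwards than upwards against TCP in the main setting. Spike-in scaling gave 6 higher and 0 lower on CSHA, where the median of all genes was also 0.56. The share of all genes past 2-fold with that scaling is not given, so this count is no result about the pathway. Genes well above background on some arrays only, some of them higher on 1 membrane by a bound, lie outside these counts. On CS, 0 were at least 2-fold higher, beside 0.623% of all genes well above background on the 3 arrays, and 3 were at least 2-fold lower, beside 0.593%. On CSHA, 0 were higher, beside 1.95%, and 6 were lower, beside 3.3%. Between CSHA and CS 0 were past 2-fold, beside 0.801% higher and 1.51% lower. The 50 genes had a median of -0.11 (CS) and 0.11 (CSHA), beside 0.04 and 0.12 for all genes so measured. With normexp or the deposited values 2 of the pathway genes were 2-fold lower on CSHA.

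Among the other pathway genes measured on all arrays, the lowest values on both membranes were those of TGFBI, CDKN2B and GATA2, listed as TGF-beta or BMP targets. On CSHA the value of CDKN2B was close to those of FURIN (-1.11) and ENG (-1.08), which are not on the target lists. Whether the listed targets reported such signals in these cells was not tested. TGFBI, a matrix protein named for its induction by TGF-beta, read 4872 on TCP, 2388 on CS and 2048 on CSHA. It was lower by 1.28 and 1.18 (spot SD 0.06 for both). Over the settings its difference was between -1.33 and -1.23 on CS, and on CSHA it was -0.75 with spike-in scaling. CDKN2B, the cell cycle inhibitor p15 that TGF-beta induces, was dim at 71.1, 39.6 and 31.3, and its differences of -1.10 and -1.12 came with spot SDs of 0.39 and 0.40, and were -0.54 and -0.48 with normexp. GATA2, a transcription factor counted here among BMP targets, read 377, 170 and 157, and was lower by 1.41 and 1.19 (spot SD 0.25 and 0.27), or by 0.87 on CSHA with normexp. These genes did not share 1 direction with the rest of their lists. Of 12 TGF-beta targets measured on all arrays, 8 lay below 0 on CS and 7 on CSHA, with medians of -0.25 and -0.21, and ITGB6, an integrin subunit that activates latent TGF-beta, had 0.34 and 0.33, about the size of its spot SDs of 0.32 and 0.32. Of the 11 other BMP targets, 4 were measured on all arrays. Besides GATA2, BAMBI, a decoy receptor, had 0.20 and 0.25. RUNX2, a transcription factor of bone, was dim at 126, 95.1 and 108. It had -0.66 and -0.15 (spot SD 0.39 and 0.40), turning to above 0 on CSHA with spike-in scaling. HAMP, the iron hormone hepcidin, was dim at 56.1, 61.7 and 85.5. It had -0.12 and 0.68 (spot SD 0.39 and 0.40), or 0.40 on CSHA with normexp. MSX2, a homeobox factor, was dim at 37.4, 27.5 and 22.0. It was lower by 0.70 on CS (spot SD 0.39) and at least 1.57-fold lower on CSHA, where it was not well above background. The dim TGF-beta targets CCN2 and CDKN1A were not well above background on TCP and went the other way. CCN2 was at least 1.72-fold higher on CSHA, with no bound on CS. CDKN1A was at least 1.05-fold higher on CS and at least 1.53-fold higher on CSHA. ID4, ATOH8, MSX1, DLX5 and SMAD9 were not well above background on any array.

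**Figure D5:**
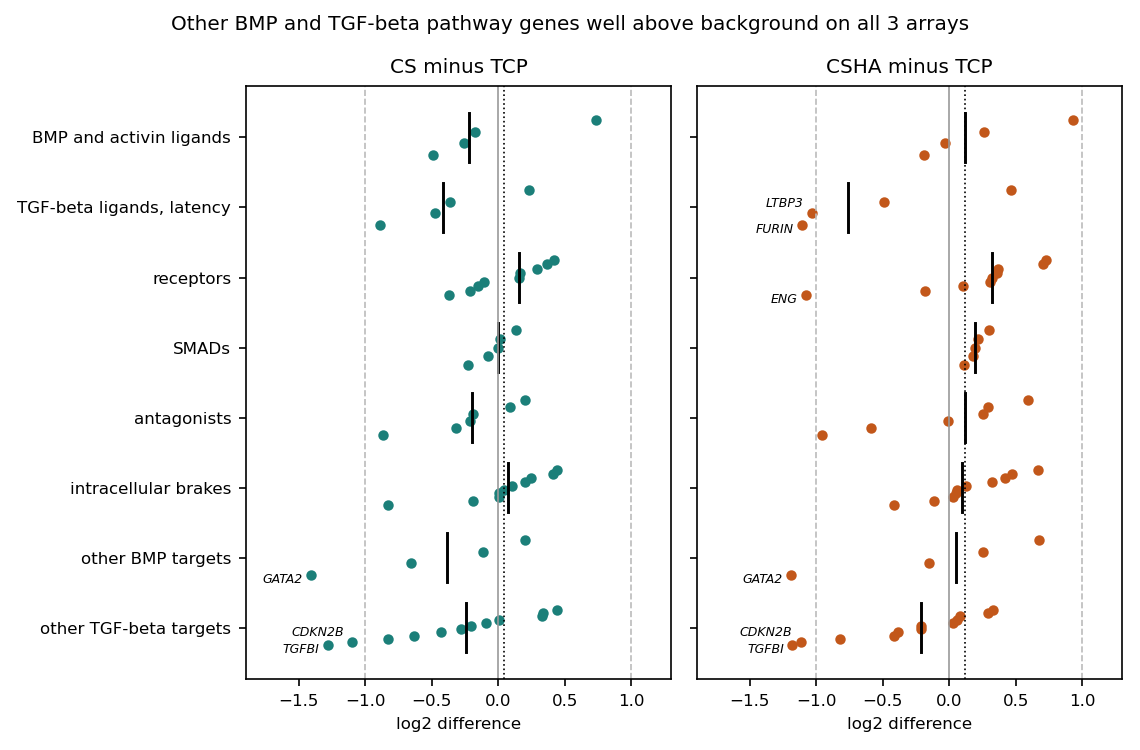
Log2 difference (x axis) on CS and on CSHA of the other pathway genes well above background on all 3 arrays, by list (y axis), with 1 point per gene (a gene on more than 1 list is drawn in each), a black bar at the median of each list, dashed lines at 2-fold and a dotted line at the median of all genes so measured. TGFBI, CDKN2B and GATA2 lie beyond 2-fold on both membranes, and FURIN, LTBP3 and ENG on CSHA.

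Genes for proteins that carry or process TGF-beta, listed beside TGFB1, went both ways. LTBP3, which binds latent TGF-beta and guides its secretion, read 897 on TCP, 833 on CS and 418 on CSHA, a difference of -0.36 on CS and -1.03 on CSHA (spot SD 0.09 for both). FURIN, the protease that cleaves the precursors of TGF-beta and BMPs, was dim at 125, 108 and 55.3, with -0.47 and -1.11 (spot SD 0.39 and 0.40), or -0.56 on CSHA with normexp. LTBP4, of the same family as LTBP3, went the other way by its brighter probe, with 0.23 and 0.47, while its other probe had -0.25 and 0.15. LRRC32, which holds latent TGF-beta at the cell surface, read 16.1, 44.9 and 38.8, at least 1.56-fold higher on CS and at least 1.69-fold higher on CSHA, since TCP was not well above background. Of the 4 genes of this list measured on all arrays 3 lay below 0 on each membrane, with medians of -0.42 on CS and -0.76 on CSHA. Under spike-in scaling LTBP3 on CSHA was at -0.60 and FURIN at -0.68.

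Most other ligands of the family stayed near background. Of 14 BMP and activin ligands, 9 were not well above background on any array. GDF15, a distant member of the family that cells secrete under stress, read 33794 on TCP, 67174 on CS and 61516 on CSHA. It was higher by 0.74 (spot SD 0.055) and 0.93 (spot SD 0.059). BMP8B, a further BMP ligand, read 7113, 6051 and 5942, with -0.49 on CS and -0.19 on CSHA, the latter 0.24 with spike-in scaling.

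Of the receptors other than TGFBR2, 9 of 14 were measured on all arrays, 5 above 0 on CS and 7 on CSHA, with medians of 0.15 and 0.32. ACVR1B, a type I receptor for activin, was dim at 53.7, 59.5 and 84.6. It had -0.11 on CS and 0.73 on CSHA (spot SD 0.39 and 0.40), or 0.36 on CSHA with normexp. ENG, the co-receptor endoglin, read 91.0, 93.7 and 41.1 and had -0.21 on CS and -1.08 on CSHA with spot SDs of 0.39 and 0.40, or -0.42 on CSHA with normexp. The SMADs that carry the signal varied less than these receptors. SMAD1 had 0.13 on CS and 0.20 on CSHA, SMAD2 0.02 and 0.30 (spot SD 0.39 and 0.40), SMAD3 -0.23 and 0.18, SMAD4 -0.00 and 0.11, and SMAD5 -0.08 and 0.22. None of these reached 1.5-fold against TCP in the main setting, and the other 2 probes of SMAD4 gave 0.08 and -0.03 on CS and 0.11 and 0.21 on CSHA.

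Inhibitors inside the cell had no common direction beyond that of all genes. All 10 were measured on every array, 8 of them above 0 on each membrane, with medians of 0.07 on CS and 0.09 on CSHA. SKI, a corepressor of SMAD complexes, had 0.20 and 0.67. PMEPA1, a membrane protein that TGF-beta induces and that holds back SMADs, had -0.83 and -0.42, while its other probe had -0.60 and 0.16, so its direction on CSHA was not settled. Of the 15 antagonists on the array outside the cell or at its surface, 6 were measured on all arrays, with medians of -0.20 on CS and 0.12 on CSHA. SOSTDC1, a secreted antagonist of BMP and Wnt signals, read 310, 203 and 152 and had -0.87 and -0.96 (spot SD 0.25 and 0.27). CHRD, the BMP antagonist chordin, had 0.09 and 0.59 by its brighter probe (spot SD 0.39 and 0.40) and 0.13 and -0.23 by the other.

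Some pathway genes were well above background on a single array, which gives a bound. HEY1, a transcription factor listed with the BMP targets, read 15.8 on TCP, 5.50 on CS and 99.8 on CSHA, so that CSHA exceeded TCP at least 4.35-fold, or by 2.12 on the log2 scale, but by 0.85 with normexp and 0.92 with the deposited values. GDF10, a BMP-like ligand, read 5.48, 4.82 and 71.3, so that CSHA exceeded TCP by at least 1.63 on the log2 scale, or 0.96 with normexp. CHRDL2, a chordin-like antagonist, read 5.20, 138 and 4.95, so the CS array exceeded TCP at least 4.79-fold, or by 2.26 on the log2 scale and 1.19 with normexp, but its other probe was not well above background on any array. The stromal marker PDGFRB stood out on CSHA in the same way, at 5.97, 5.18 and 90.3. Each of these probes was printed in 1 spot per array, so each value rests on 1 spot, and a fault of that spot was not tested. These bounds set the bright probe against a limit on the dim array, either the dim signal itself or, where higher, the weakest signal that still counted as well above background there (24.1 for TCP, 21.1 for CS, 22.6 for CSHA).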

How the data were processed

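The study measured HT29 cells from TCP, CS and CSHA on 3 Agilent single-colour arrays of 62976 spots, 1 array per substrate and all on 1 slide. The authors deposited spot intensity values from the scanner software, background-corrected and not normalized between arrays. They also deposited a table of log2 values, which equal the log2 median signal less 1 constant per array and the centre of each spot within 1e-05 at all spots. Feature Extraction is version 10.7.3.1 in the file headers, the methods name another, and the labels and methods name different RNA kits. The processing notes of the submitters name limma.

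Control spots and outlier spots (264 to 359 per array) were left out, the processed signal was floored at 1, which changed 0 spots, and the 75th percentile over non-control probes was subtracted after taking log2. Of 50599 probes, 30004 were matched by accession to RefSeq symbols. The brightest probe stood for each gene. Between 48.6% and 51.1% of probes were well above background, and 0 spots were saturated. With 1 array per substrate there was no test, and the number of arrays limits the precision. A gene counted as different where its fold was 2 or more. The calculation was tested on simulated data, and 10 alternatives were tried.

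The members and the gene lists were chosen with earlier results of these data known. Named are all members, pathway genes past 2-fold in any comparison, the extremes of each list on CSHA, the SMADs and the other BMP targets. Of like patterns, the 2 closest genes by Euclidean distance over the 3 centred values are given. Some genes that these rules select are not reported here. Tools were Python 3.11.15, numpy 2.4.6, pandas 2.3.3, matplotlib 3.10.9, R 4.3.3 and limma 3.58.1.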

Additional observations from a re-analysis of the deposited data

How the results depend on the processing

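Of 243 recomputed differences of the 9 genes, 16 had the opposite sign to the main value, 8 of them with spike-in scaling, and in 2 of the 16 the main value was larger than the spot spread. Of 701 for other pathway genes 17 had the opposite sign, 3 of them from a main value larger than the spot spread. Many of these differences could not change. The 9 genes were well above background on every array, so the settings on dim probes returned their main values by construction. The mean over probes could alter ID2 alone among them. Part of the 701 was fixed in the same way, so both totals overstate how far the signs were tested. Scaling to the 7 brightest spike-in probes turned CSHA minus TCP to 0.25 for ID1, 0.078 for SMAD7, 0.24 for BMP8B, 0.012 for PMEPA1 and 0.25 for the median of the members, and moved the members' median for CSHA minus CS to 0.37. With it 6 other pathway genes were 2-fold higher and 0 lower for CSHA minus TCP, and 2 were higher for CSHA minus CS. The median of all genes with this scaling was 0.56 for CSHA minus TCP and 0.45 for CSHA minus CS, and no share of all genes past 2-fold is given for it. The mean over probes turned LTBP4 to -0.0096 on CS and moved the members' median for CSHA minus CS to 0.052. The members' median for CSHA minus TCP was -0.10 with normexp and -0.12 with the deposited values. The count of members 2-fold higher on CSHA was 0 with normexp, with the shift over detected probes and with the deposited values. With normexp and with the deposited values 2 other pathway genes were 2-fold lower on CSHA, with the deposited values 1 was higher, and with quantile normalization 1 was lower for CSHA minus CS. The offset of 50 in normexp, and the lack of background correction in the deposited values, shrink differences of dim probes by construction. What else contributed was not tested. At 1.5-fold, a looser rule by construction, 1 member was higher on CS, 1 was lower on CSHA, and of the other pathway genes 1 was higher and 8 lower on CS, 6 higher and 9 lower on CSHA, and 2 higher and 4 lower for CSHA minus CS. No share of all genes past 1.5-fold is given beside these counts, so they are no result about the members or the pathway. No paired analysis was possible because each substrate had 1 array, and no replicate could be left out. Dim probes such as ID3, CDKN2B, FURIN and ENG were assigned a spot spread near 0.4 on the log2 scale from other probes of similar brightness, which limits what their differences show.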
